A study of Mus musculus with 10 samples.

Results

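DNA replication and nucleotide supply genes were followed across 5 groups of sorted mouse acute promyelocytic leukaemia (APL) cells. The set held 43 genes listed by name: factors that license and fire replication origins, the replicative polymerases and their accessory factors, and enzymes that make DNA precursors. A gene was measured by the probe sets that carried its symbol and no other, and the probe set with the highest mean log2 signal over the 10 arrays stood for it. Of the 43 genes, 42 were measured and tested, out of 14581 genes tested in all. Chaf1a, the large subunit of the histone chaperone CAF-1, had no such probe set. The probe sets of Tyms (thymidylate synthase) that carried its symbol alone were close to the dim end of the arrays, and 1 further probe set that lists Tyms with another symbol was not used, so its values say little.

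The leukaemia came from PML-RARα transgenic mice of the FVB N/J strain, aged 8-10 weeks. The labels do not name the promoter of the transgene or say how many mice gave the cells. Leukaemia cells that carried a retroviral GFP mark were expanded by transplantation into mice of the same strain, and GFP-positive marrow cells were sorted by flow cytometry into subsets named SC, PD and TD, which the labels do not spell out. UNSC, UNPD and UNTD are these subsets without treatment. RAPD and RATD are the PD and TD subsets after all-trans retinoic acid (ATRA), the ligand of the RARα part of the fusion protein, at 10 mg/kg. The treatment protocol gives 5 days of ATRA, whereas the sample source names give 3 to 5 days. No ATRA-treated SC sample was analysed here. Each group had 2 arrays, which the labels call biological replicates; whether they came from separate mice is not stated, and the p-values measure the spread between these arrays.

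Before S phase, the origin recognition complex (Orc1 to Orc6) with Cdc6 and Cdt1 loads the ring-shaped MCM helicase onto origins, and geminin (Gmnn) blocks Cdt1 until the next cycle. Cdc45 and the GINS complex then turn the loaded ring into an active helicase. Polymerase alpha with primase starts each strand, the clamp loader RFC places the sliding clamp PCNA, polymerases delta and epsilon copy the bulk of the DNA, and Fen1 and Lig1 trim and seal the lagging strand. Many of these genes are transcribed under E2F control as cells enter S phase, and promyelocytes stop dividing as they mature.

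E2F factors bind short GC-rich sites, so the promoters of the members were searched for 4 spellings of an E2F-type octamer, TTTGGCGC, TTTCCCGC, TTTCGCGC and TTTGCCGC, on both strands. The windows were those of the RefSeq promoter table (build GRCm38.p6), which runs from 250 bases before each gene's start to 50 after it and held 35 of the 43 members. Mcm4, Gins1, Gins2, Gins4, Rfc2, Prim2, Pole and Gmnn had no entry and were not searched. An octamer lay in 13 of the 35 genes searched and in 32.5% of their 40 windows, against 2.26% of the 32851 windows of the whole table. The genes were Cdc6, Cdt1, Gins3, Lig1, Mcm3, Mcm5, Mcm6, Mcm7, Orc1, Pola1, Pold1, Pole2 and Rfc3. The CCAAT box (CCAAT, both strands) was in 55% of member windows and 37.4% of all windows, and the CHR hexamer TTTGAA (both strands) in 12.5% against 17.9%. A match is a description of these letters and not a bound site.

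Stretches of 120 bases upstream of the start are shown for 4 genes, with the octamers in capitals. Mcm5 and Cdc6 are 2 of 8 reference genes (Mcm2, Mcm5, Cdc6, Pcna, Pole, Rrm2, Tk1 and Dut) whose values are given in every comparison. Of the reference genes with a promoter entry, which Pole lacked, they are the ones in which an octamer was found. Orc1 and Pola1 were added after their values were seen, because their signals in the UNPD arrays went the other way from that of Mcm5 although each holds an octamer. In Mcm5 the run in capitals is 2 overlapping octamers on opposite strands that start 153 bases before the gene's start. In Cdc6 and in Pola1 the octamer begins 138 bases before the start, and in Orc1 27 bases before it. The stretches lie at chr8:75109346-75109465 (plus strand) for Mcm5, chr11:98908003-98908122 (plus strand) for Cdc6, chr4:108579334-108579453 (plus strand) for Orc1 and chrX:93632184-93632303 (minus strand) for Pola1.
Mcm5: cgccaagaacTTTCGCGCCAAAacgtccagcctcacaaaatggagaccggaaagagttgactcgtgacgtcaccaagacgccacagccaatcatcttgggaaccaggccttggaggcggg
Cdc6: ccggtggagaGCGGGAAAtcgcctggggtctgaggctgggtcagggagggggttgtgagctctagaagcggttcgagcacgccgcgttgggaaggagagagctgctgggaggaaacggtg
Orc1: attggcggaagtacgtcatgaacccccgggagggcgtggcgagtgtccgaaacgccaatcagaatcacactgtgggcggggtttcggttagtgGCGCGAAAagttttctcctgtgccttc
Pola1: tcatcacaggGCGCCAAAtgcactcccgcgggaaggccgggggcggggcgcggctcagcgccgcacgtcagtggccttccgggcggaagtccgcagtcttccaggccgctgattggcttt

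Some properties of the arrays bear on what follows. The deposited values are MAS5 log2 signals scaled to a common trimmed mean, and the 75th percentile of log2 signal still ran from 8.28 and 8.35 on the UNPD arrays and 8.41 on RAPD replicate 2 to between 8.60 and 8.78 on the other 7. Replicates were closest in UNSC and farthest apart in the ATRA groups: over the 42 members the median absolute difference between replicates was 0.08 (log2) in UNSC, 0.16 in UNPD, 0.12 in UNTD, 0.29 in RAPD and 0.28 in RATD. RAPD replicate 1 and RATD replicate 2 correlated best with each other over all genes, and RATD replicate 1 with UNTD replicate 2, rather than with the other array of their own group. The promyelocyte markers Mpo, Elane, Prtn3, Ctsg, Kit and Ms4a3 were above the dim level on all 10 arrays; that level is each array's 40th percentile of log2 signal. They were lower in the TD groups: 4 of the 6 were called lower in UNTD than in UNSC, 5 in UNTD than in UNPD and 4 in RATD than in RAPD, and their summed linear signal was 80300 to 108800 on the TD arrays and 145500 to 191700 on the others. In UNTD minus UNSC the difference was -1.34 ± 0.23 for the granule protease gene Elane and -1.87 ± 0.20 for the stem cell factor receptor gene Kit. The monocyte and macrophage markers (Csf1r, Irf8, Ctss, Cx3cr1, Msr1, Trem2, Apoe, Lpl and Adgre1) were higher in the TD groups: their summed linear signal was 3741 to 3771 in UNSC, 4864 to 6060 in UNPD, 3109 to 4362 in RAPD, 43350 to 48670 in UNTD and 17180 to 33970 in RATD. Of the 9, 8 were called higher in UNTD than in UNSC, all 9 in UNTD than in UNPD and 8 in RATD than in RAPD. Over all arrays the summed signal of the other marker lists ran from 912.7 to 2412 for 5 erythroid genes, 749.7 to 14810 for 7 B cell genes, 100.9 to 792.5 for 3 T and NK cell genes, 879.4 to 3644 for 5 mast cell and basophil genes and 374.5 to 860.7 for 5 megakaryocyte genes. Of the 7 B cell genes, 2 were called lower in UNTD minus UNSC, 3 in UNTD minus UNPD, 2 in RAPD minus UNPD and 1 in RATD minus RAPD, and 0 higher. Igll1 and Vpreb1 were the called genes, joined by Pax5 in UNTD minus UNPD, and Igll1 alone was called in RATD minus RAPD. Apart from Igll1 and Vpreb1, the B cell genes had a log2 signal of 5.893 or less on every array. The basophil gene Mcpt8 was called lower in UNTD minus UNSC (-2.10 ± 0.26), in UNTD minus UNPD and in RAPD minus UNPD. It was the only called gene of the 5 mast cell and basophil genes in each of these. Of the 5 differences, 2, 4 and 3 were positive there, in the same order. In the ATRA difference in TD minus that in PD, Mcpt8 was called higher (2.17 ± 0.37). In UNPD against UNSC, 1 of the 7 B cell genes was called higher, the surrogate light chain gene Igll1 (1.40 ± 0.21). Of the 5 erythroid genes 1 was called higher, Slc4a1, whose 2 UNSC arrays were below the dim level so that no size is given. The transferrin receptor Tfrc was called lower (-1.73 ± 0.32). The summed signal of the 5 was 912.7 to 973.9 in UNPD and 2261 to 2412 in UNSC. Tfrc, at 11.08 and 11.18 (log2) on the UNSC arrays, was by far the brightest of them and set this sum. The median log2 signal of the 5 went the other way, 6.33 to 6.74 in UNPD and 4.49 to 4.78 in UNSC. The part of the promyelocyte and the monocyte and macrophage shifts in the results on the TD groups was not tested. Nor was that of the erythroid and B cell markers in those on UNPD, or of Igll1, Vpreb1, Pax5 and Mcpt8 in those on the TD and ATRA groups. In bulk samples fewer cycling cells and less RNA per cell cannot be told apart.

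**Figure D1:**
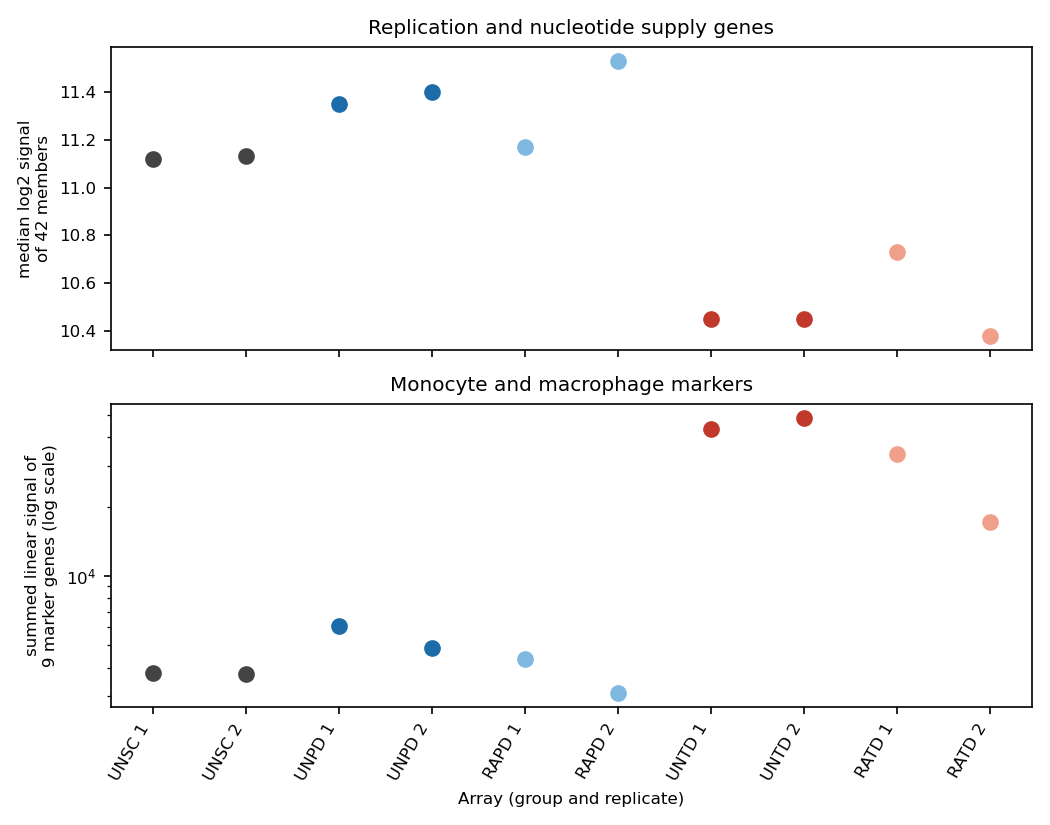
Upper panel: median log2 signal of the 42 measured members on each of the 10 arrays; lower panel: summed linear signal of 9 monocyte and macrophage markers on a log axis; each point is 1 array, coloured by group. The member median lies between 11.12 and 11.53 on the 6 UNSC, UNPD and RAPD arrays and between 10.38 and 10.73 on the 4 UNTD and RATD arrays, and the marker sum is 17180 or more on the TD arrays and 6060 or less on the others.

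Most replication and precursor genes were highest in the SC and PD subsets and lowest in the TD subsets, with and without ATRA. The highest group mean was in UNPD for 17 members, in RAPD for 15 and in UNSC for 10, and in no member in a TD group. The lowest was in UNTD for 28, in RATD for 10 and in UNPD for 4. The shares of all genes with each highest or lowest group were not computed. The test for any difference among the 5 groups called 37 of the 42 members (88.1%), against 40.1% of all genes, at a Benjamini-Hochberg adjusted p under 0.05, the threshold of every call below. The 5 members outside it were Orc6, Mcm6, Gins3, Tyms and Rrm1, and none of these was called in any single comparison. Pola1, Rfc1, Mcm4 and Orc1 were the members with the lowest mean in UNPD. With each array's 75th percentile as a covariate, 13 of 42 were called by that test, 16 were called lower in UNTD than in UNSC, and 0 were called in any other comparison. Without the intensity trend in limma's variance model, that test called 25, and the members called were 2 higher and 4 lower in UNPD against UNSC, 1 lower in UNTD against UNSC, 1 higher and 23 lower in UNTD against UNPD, and 0 in the remaining comparisons.

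**Figure D2:**
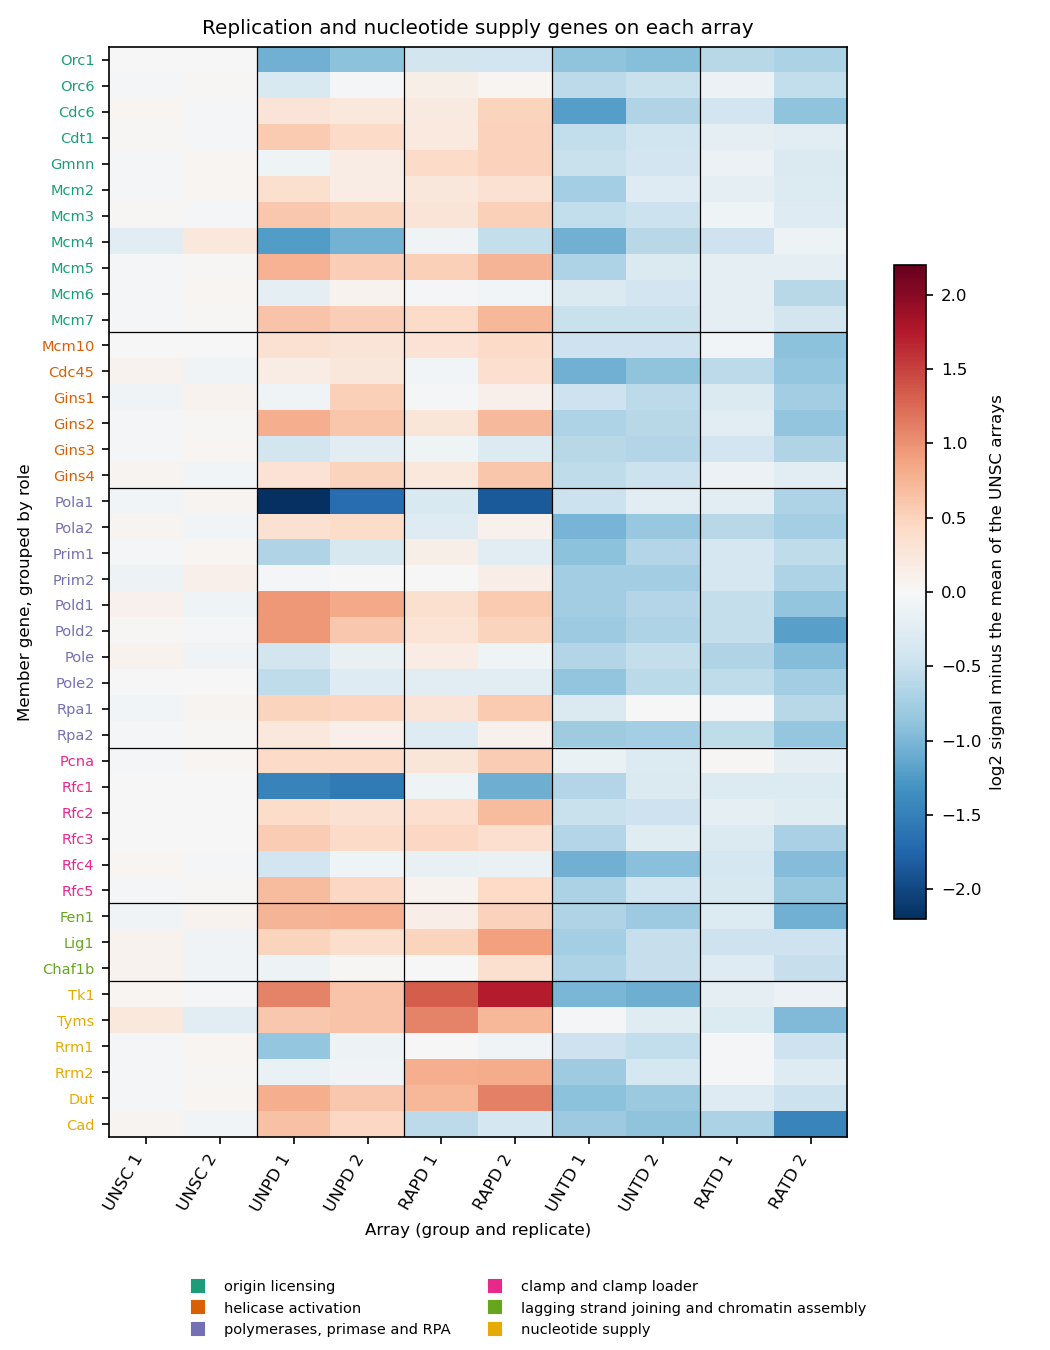
Heat map of the 42 measured members (rows, grouped and coloured by role) on the 10 arrays (columns); colour gives log2 signal minus the mean of the 2 UNSC arrays. Most rows are red in UNPD and RAPD and blue in UNTD and RATD, and Pola1, Rfc1, Mcm4 and Orc1 are blue in UNPD.

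Among the licensing factors, the helicase subunit Mcm5 had a log2 signal of 13.52 and 13.57 on the UNSC arrays, 14.31 and 14.08 in UNPD, 14.06 and 14.30 in RAPD, 12.86 and 13.23 in UNTD and 13.35 and 13.34 in RATD. Mcm2, another subunit of the ring, stood at 11.82 and 11.89 in UNSC, 12.21 and 12.01 in UNPD, 12.10 and 12.20 in RAPD, 11.11 and 11.57 in UNTD and 11.65 and 11.55 in RATD. Both were high on the PD arrays and low on the TD arrays, with no overlap between PD and TD arrays. Cdc6, the loader of the ring, gave 10.99 and 10.91 in UNSC, 11.23 and 11.18 in UNPD, 11.15 and 11.44 in RAPD, 9.73 and 10.29 in UNTD and 10.52 and 10.06 in RATD. Its 4 TD arrays lay below the other 6, and UNTD replicate 1 was the lowest.

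Orc1 and Mcm4 ran differently. Orc1, the ATPase subunit of the origin recognition complex, had 9.11 on both UNSC arrays, 8.06 and 8.21 in UNPD, 8.71 and 8.70 in RAPD, 8.22 and 8.18 in UNTD and 8.51 and 8.42 in RATD. The UNSC arrays were highest and the RAPD arrays next, and the UNPD and UNTD arrays overlapped at the bottom. Mcm4, a helicase subunit, had 12.23 and 12.70 in UNSC, 11.25 and 11.42 in UNPD, 12.40 and 11.95 in RAPD, 11.41 and 11.86 in UNTD and 12.01 and 12.35 in RATD. Its UNPD arrays were close to the UNTD arrays and did not overlap those of UNSC or RAPD.

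Of the genes that activate the helicase, Gins2, a subunit of GINS, had 10.89 and 10.94 in UNSC, 11.71 and 11.52 in UNPD, 11.18 and 11.64 in RAPD, 10.24 and 10.31 in UNTD and 10.66 and 10.05 in RATD. Cdc45, which joins GINS at the helicase, had 10.78 and 10.61 in UNSC, 10.86 and 10.95 in UNPD, 10.63 and 11.07 in RAPD, 9.64 and 9.81 in UNTD and 10.11 and 9.84 in RATD. For both genes every TD array was below every SC and PD array.

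The polymerase genes split. Pold1, the catalytic subunit of polymerase delta, had 10.67 and 10.46 in UNSC, 11.51 and 11.39 in UNPD, 10.92 and 11.15 in RAPD, 9.80 and 9.92 in UNTD and 10.04 and 9.69 in RATD. Its partner subunit Pold2 had 10.45 and 10.39 in UNSC, 11.37 and 11.01 in UNPD, 10.72 and 10.92 in RAPD, 9.63 and 9.74 in UNTD and 9.90 and 9.22 in RATD. Both were highest in UNPD and lowest on the TD arrays. Pole, the catalytic subunit of polymerase epsilon, had 10.07 and 9.91 in UNSC, 9.59 and 9.83 in UNPD, 10.16 and 9.91 in RAPD, 9.35 and 9.46 in UNTD and 9.33 and 9.04 in RATD. Its UNSC and RAPD arrays overlapped, and its 4 TD arrays were the lowest. Pola1, the catalytic subunit of polymerase alpha, had 10.15 and 10.29 in UNSC, 8.03 and 8.55 in UNPD, 9.89 and 8.37 in RAPD, 9.75 and 10.00 in UNTD and 9.99 and 9.55 in RATD. The RAPD arrays were 1.51 apart, the widest gap between replicates of any member, with replicate 2 within the range of the UNPD arrays and replicate 1 within that of the TD arrays. Pola2, the second subunit of the same polymerase, had 9.91 and 9.81 in UNSC, 10.20 and 10.26 in UNPD, 9.57 and 9.96 in RAPD, 8.85 and 9.03 in UNTD and 9.26 and 9.11 in RATD, and so did not share the low UNPD signal of Pola1.

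The clamp Pcna had 14.06 and 14.14 in UNSC, 14.51 and 14.52 in UNPD, 14.36 and 14.66 in RAPD, 13.95 and 13.79 in UNTD and 14.13 and 13.88 in RATD. Its range was narrow beside that of Tk1 or Dut, and the RATD arrays overlapped those of UNSC. Rfc1, the large subunit of the clamp loader, had 10.58 and 10.60 in UNSC, 9.12 and 9.04 in UNPD, 10.49 and 9.51 in RAPD, 9.94 and 10.28 in UNTD and 10.29 on both RATD arrays. As with Pola1, RAPD replicate 2 was the nearer of the pair to the UNPD arrays, and replicate 1 was near those of UNSC. The small subunit Rfc4 had 11.27 and 11.17 in UNSC, 10.80 and 11.13 in UNPD, 11.06 and 11.08 in RAPD, 10.17 and 10.31 in UNTD and 10.83 and 10.27 in RATD. Fen1, the flap endonuclease, had 12.26 and 12.40 in UNSC, 13.08 and 13.09 in UNPD, 12.48 and 12.84 in RAPD, 11.67 and 11.54 in UNTD and 12.02 and 11.28 in RATD. Lig1, the ligase that seals the fragments, had 11.84 and 11.67 in UNSC, 12.25 and 12.14 in UNPD, 12.24 and 12.65 in RAPD, 10.997 and 11.25 in UNTD and 11.30 and 11.29 in RATD. By group mean, Rfc4 was highest in UNSC, Fen1 in UNPD and Lig1 in RAPD. The 4 TD arrays of Fen1 and of Lig1 lay below the other 6, whereas RATD replicate 1 overlapped the UNPD arrays for Rfc4.

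Among the precursor enzymes, Tk1, the thymidine kinase of the salvage pathway, had 10.35 and 10.27 in UNSC, 11.40 and 10.94 in UNPD, 11.64 and 12.04 in RAPD, 9.31 and 9.24 in UNTD and 10.10 and 10.19 in RATD. No 2 of its 5 groups overlapped. Dut, which removes dUTP, had 12.63 and 12.71 in UNSC, 13.46 and 13.25 in UNPD, 13.40 and 13.78 in RAPD, 11.76 and 11.85 in UNTD and 12.38 and 12.20 in RATD. Here the UNPD and RAPD arrays overlapped and the other groups did not. Rrm2, the small subunit of ribonucleotide reductase, had 12.79 and 12.84 in UNSC, 12.67 and 12.73 in UNPD, 13.62 on both RAPD arrays, 12.03 and 12.43 in UNTD and 12.78 and 12.54 in RATD, so that RAPD stood alone at the top. Cad, which carries out the opening steps of pyrimidine synthesis, had 10.80 and 10.67 in UNSC, 11.38 and 11.19 in UNPD, 10.16 and 10.35 in RAPD, 9.93 and 9.84 in UNTD and 10.05 and 9.28 in RATD. Its RAPD arrays lay below both the UNPD and the UNSC arrays.

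**Figure D3:**
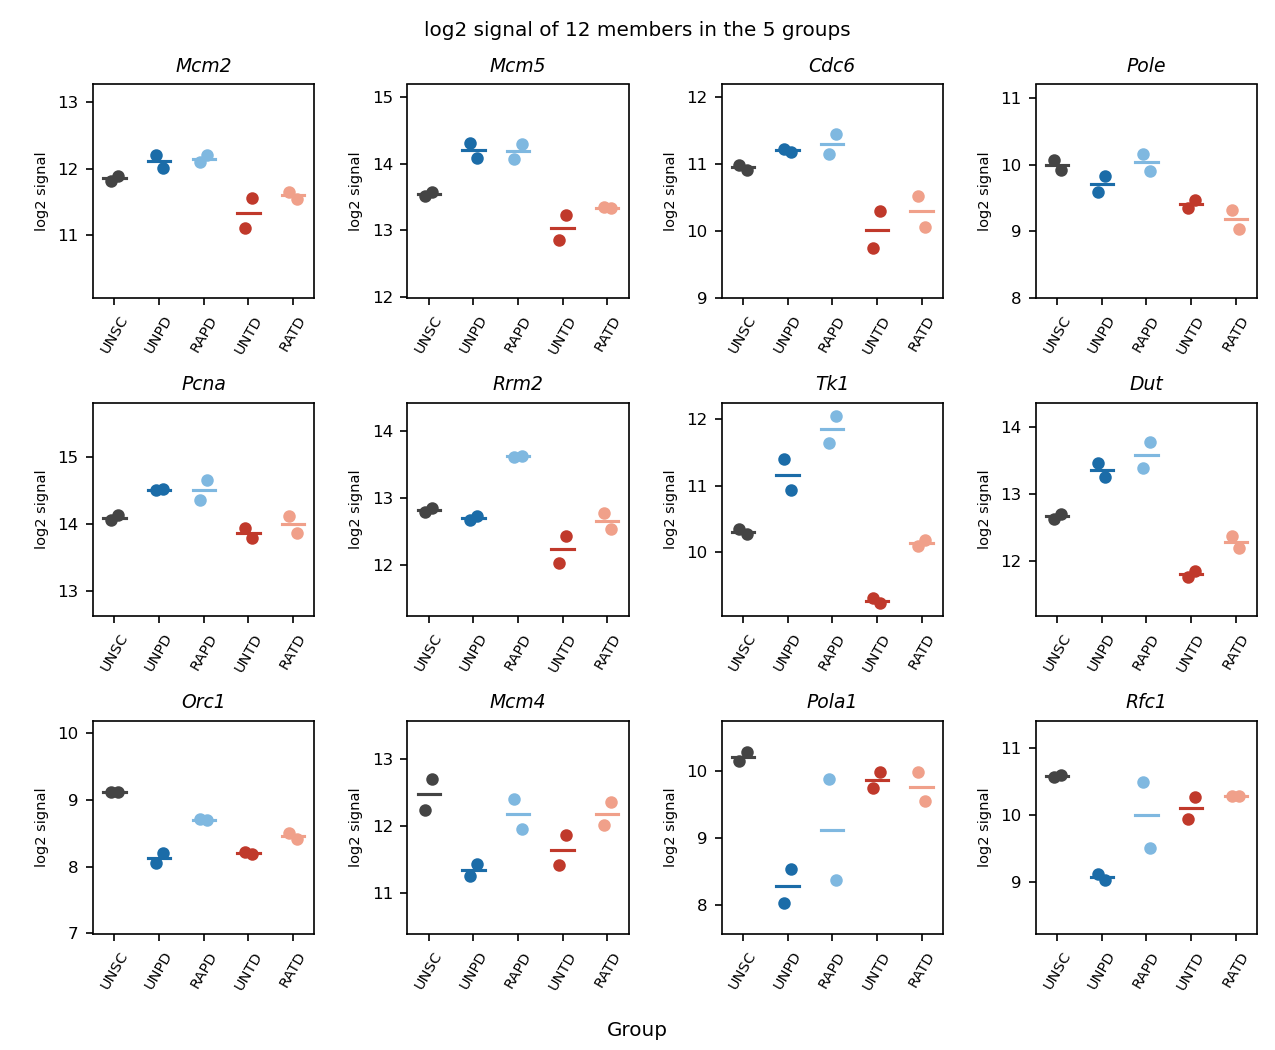
log2 signal of 12 members in the 5 groups; points are single arrays, bars are group means, and every panel spans the same number of log2 units. Tk1 runs from 9.24 on a UNTD array to 12.04 on a RAPD array and Dut from 11.76 to 13.78, Rrm2 stands alone at 13.62 in RAPD, and Pola1, Rfc1, Mcm4 and Orc1 are lowest in UNPD or level there with UNTD.

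The comparison of UNPD with UNSC asks how the untreated PD subset differs from the SC subset. Genes of DNA synthesis went both ways. Of the 42 members, 10 were higher in UNPD (23.8%, against 10.6% of all genes) and 4 were lower (9.52%, against 15.2%), with a median log2 difference of 0.28 beside 0.20 for all genes. The higher members were 4 licensing factors (Mcm5, Mcm7, Mcm3 and Cdt1), Gins2, both delta subunits, Fen1, Tk1 and Dut. Pold1 rose by 0.89 ± 0.18 (log2, SE; 1.85-fold; adjusted p = 0.00511) and Tk1 by 0.86 ± 0.20 (1.81-fold; adjusted p = 0.00933). Pold2 rose by 0.77 ± 0.23, Fen1 by 0.75 ± 0.22, Gins2 by 0.70 ± 0.22, Dut by 0.69 ± 0.17 and Mcm5 by 0.65 ± 0.17, with adjusted p between 0.0112 and 0.0367. All of these but the reference gene Mcm5 were named partly because their arrays did not overlap in the 2 groups. That absence of overlap therefore adds no support.

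Pola1 was 3.82-fold lower in UNPD (-1.93 ± 0.39; adjusted p = 0.00447) and Rfc1 2.85-fold lower (-1.51 ± 0.27; adjusted p = 0.00254). Mcm4 was 2.19-fold lower (-1.13 ± 0.23; adjusted p = 0.00446) and Orc1 1.98-fold lower (-0.98 ± 0.21; adjusted p = 0.00533). The 2 further probe sets of Rfc1 gave -1.46 and -1.88, the second of Mcm4 -0.51 and the second of Orc1 -0.73. A second probe set of Rrm1, the large subunit of ribonucleotide reductase, gave -1.82, whereas the brighter one that stood for the gene gave -0.49. Over all members, 33 of 43 further probe sets had the sign of the one used, and 16 of 18 for the called members. The exceptions were dimmer probe sets of Mcm3 (-0.09) and Mcm5 (-0.25), neither of them called. Cdc6 (0.25 ± 0.22), Mcm2 (0.25 ± 0.18), Pcna (0.42 ± 0.16), Pole (-0.29 ± 0.20) and Rrm2 (-0.12 ± 0.17) were not called.

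Long genes were among the low ones. Pola1 spans 328 kb in the RefSeq annotation, Rfc1 76.8 kb and Orc1 40.3 kb, though Mcm4 spans 13.5 kb, and Prim2, a primase subunit of 216 kb, differed by -0.01 ± 0.18. Across the 42 members, the Spearman correlation between gene length and difference was -0.407, and it was -0.26 over the 14487 genes with a length and -0.475 over the brighter of these; all points share the same 4 arrays. Over the members this correlation was 0.0354 in UNTD minus UNSC, 0.362 in UNTD minus UNPD and 0.282 in RAPD minus UNPD. It was -0.221 in RATD minus UNTD, 0.282 in RATD minus RAPD, which holds no UNPD array, and -0.389 for the ATRA difference in TD minus that in PD. In the same order it was 0.0341, 0.247, 0.195, -0.0073, 0.203 and -0.182 over all genes with a length. Over the brighter of these it was 0.116, 0.447, 0.383, -0.0759, 0.371 and -0.419. Comparisons that share arrays are not independent. The part of gene length in these differences was not tested.

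**Figure D4:**
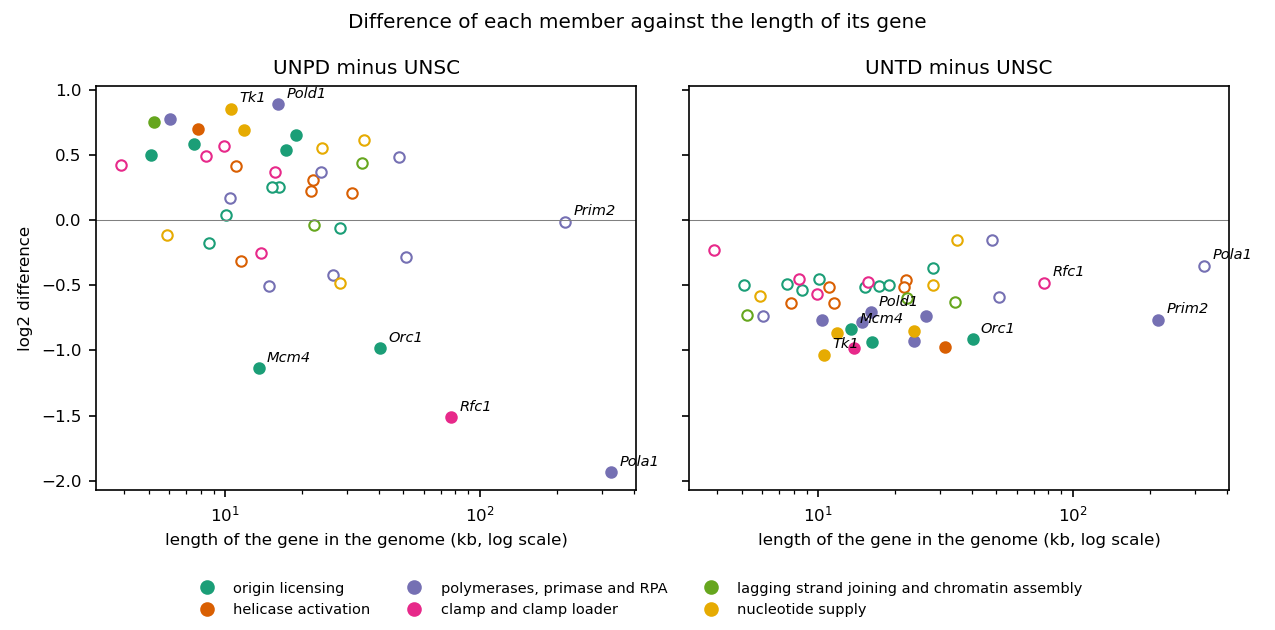
log2 difference of each member (points coloured by role; filled where adjusted p was under 0.05) against the length of its gene in kb on a log axis, for UNPD minus UNSC (left) and UNTD minus UNSC (right). On the left Pola1 and Rfc1, at 328 and 76.8 kb, are lowest at -1.93 and -1.51, and Prim2, at 216 kb, is at -0.01; on the right all 42 points are below 0.

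The count of higher members depended on the scaling and on single arrays. It was 6 after quantile normalization and 25 after setting all arrays to a common 75th percentile, where the median of the members was 0.18 beside 0.31 for all genes and 0.68 beside 0.60; higher genes made up 41.2% of all called genes as deposited, 54% and 72.9%. It was 1 without UNSC replicate 1, 0 without UNSC replicate 2, 0 without UNPD replicate 1 and 5 without UNPD replicate 2, and the count of lower members was 2 without UNSC replicate 2 and 1 without UNPD replicate 1.

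UNTD was compared with UNSC to see how the untreated TD subset differs from the SC subset. All 42 members had lower mean signal in UNTD, 14 of them past the threshold (33.3%, against 3.2% of all genes), and 0 were called higher (against 4.96%). The median was -0.59, beside -0.04 for all genes, and 35 members had an unadjusted p under 0.05, all lower. The share of all genes under that unadjusted threshold was not computed. The called members held 6 of the 10 polymerase, primase and RPA genes (Pola2, Prim1, Prim2, Pold1, Pole2 and Rpa2), 3 of the 6 precursor enzymes (Tk1, Dut and Cad), the licensing factors Cdc6, Orc1 and Mcm4, and Cdc45 and Rfc4. Tk1 was 2.05-fold lower (-1.03 ± 0.20; adjusted p = 0.00862), Dut 1.82-fold lower (-0.86 ± 0.17; adjusted p = 0.00861) and Cdc45 1.96-fold lower (-0.97 ± 0.20; adjusted p = 0.0104).

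Rfc4 (-0.98 ± 0.20), Cdc6 (-0.93 ± 0.22), Pola2 (-0.92 ± 0.20) and Orc1 (-0.91 ± 0.21) fell, with adjusted p between 0.0125 and 0.0242. Of the 11 further probe sets of the called members, 7 had the sign of the one used. The other 4, all dimmer and not called, were 2 of Pola2 (0.33 and 0.57), 1 of Prim2 (0.39) and 1 of Pole2 (0.07). Of the reference genes that missed the threshold, Mcm2 differed by -0.52 ± 0.18, Mcm5 by -0.50 ± 0.17, Pole by -0.59 ± 0.20 and Rrm2 by -0.59 ± 0.17, whose adjusted p was 0.0529. Pcna differed by -0.23, with a 95% interval from -0.58 to 0.12.

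The sign held in the alternatives of scaling, with a median of -0.60 after quantile normalization and -0.64 at a common 75th percentile, but the number of calls did not. It was 22 after quantile normalization, 38 when only these 4 arrays were fitted, 0 without either UNSC array or without UNTD replicate 1, 1 without UNTD replicate 2 and 22 without either RAPD array, and every called member kept its sign when any one array was left out.

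Between the untreated TD and PD subsets the members differed most. In UNTD, 30 of 42 were lower (71.4%, against 17.2% of all genes) and 2 were higher (4.76%, against 18%), and the median was -0.77 beside -0.13 for all genes. The lower members held 5 of the 6 helicase activators, 5 of the 6 clamp and clamp loader genes, all 3 genes of lagging strand joining and chromatin assembly, 7 of the 11 licensing factors, 6 of the 10 polymerase, primase and RPA genes and 4 of the 6 precursor enzymes. Tk1 was 3.70-fold lower in UNTD (-1.89 ± 0.20; adjusted p = 0.000114), Pold1 3.02-fold (-1.59 ± 0.18; adjusted p = 0.000172) and Dut 2.93-fold (-1.55 ± 0.17; adjusted p = 0.000125).

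Pold2 (-1.51 ± 0.23), Fen1 (-1.48 ± 0.22) and Cad (-1.40 ± 0.23) fell, with adjusted p of 0.000549, 0.000549 and 0.000883. Among the other reference genes, Cdc6 (-1.19 ± 0.22), Mcm5 (-1.16 ± 0.17), Mcm2 (-0.77 ± 0.18), Pcna (-0.65 ± 0.16) and Rrm2 (-0.47 ± 0.17) fell. Pole differed by -0.30 ± 0.20 and was not called. Pola1 was 3.00-fold higher in UNTD (1.58 ± 0.39; adjusted p = 0.00801) and Rfc1 2.04-fold higher (1.03 ± 0.27; adjusted p = 0.0111); Mcm4 (0.30 ± 0.23) and Orc1 (0.07 ± 0.21) were not called. Of 33 further probe sets of the called members, 28 had the sign of the one used. The other 5, dimmer and not called, belonged to Pola2 (0.73 and 0.54), Prim2 (0.71), Mcm3 (0.05) and Cdc45 (0.01).

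The comparisons with UNSC and with UNPD share the UNTD arrays, and UNPD enters both UNPD minus UNSC and UNTD minus UNPD. Of the 30 lower members, 10 were also called lower against UNSC: Cad, Cdc45, Cdc6, Dut, Pola2, Pold1, Prim2, Rfc4, Rpa2 and Tk1. Mcm4, Orc1, Pole2 and Prim1 were called lower against UNSC and not against UNPD. The count of lower members was 29 after quantile normalization and 37 at a common 75th percentile, while higher genes made up 51.1% of all called genes as deposited, 39.5% and 27.7%, and it lay between 22 and 30 when single arrays were left out. Neither Pola1 nor Rfc1 was called without UNPD replicate 1 or without UNTD replicate 2, and 1 gene was called higher without UNPD replicate 2.

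**Figure D5:**
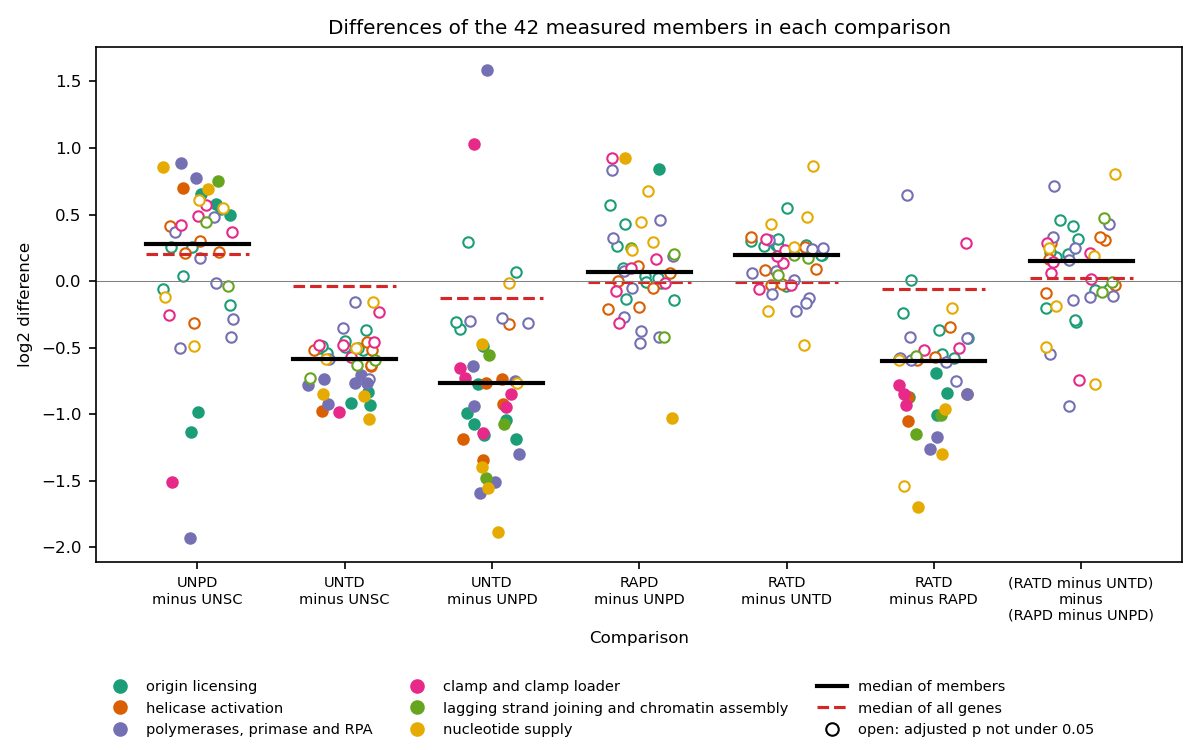
log2 difference of each of the 42 members in the 7 comparisons; points are genes coloured by role and filled where the adjusted p was under 0.05, black bars are the median of the members and dashed red lines the median of all genes. The members' median is at -0.59 in UNTD minus UNSC, -0.77 in UNTD minus UNPD and -0.60 in RATD minus RAPD, against -0.04, -0.13 and -0.06 for all genes; comparisons that share a group are not independent.

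Few of these genes were called after ATRA in the PD subset. In RAPD against UNPD, 2 of 42 members were higher (4.76%, against 4.86% of all genes) and 1 was lower (2.38%, against 3.19%), shares near the background, and the median was 0.07 beside -0.01. Rrm2 rose 1.90-fold (0.92 ± 0.17; adjusted p = 0.0126), and its 2 further probe sets gave 0.86 and 0.52. Mcm4 rose 1.79-fold (0.84 ± 0.23; adjusted p = 0.0462), with 0.93 in its other probe set. Cad fell 2.04-fold (-1.03 ± 0.23; adjusted p = 0.0257), with -0.86 in its other kept probe set.

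Tk1 (0.67 ± 0.20; adjusted p = 0.0605) and Rfc1 (0.93 ± 0.27; adjusted p = 0.0573) were just outside the threshold. The 2 further probe sets of Rfc1 gave 1.09 and 1.43. The remaining reference genes were close to 0: Mcm2 at 0.04 (95% interval -0.35 to 0.43), Mcm5 at -0.02 (-0.38 to 0.35), Pcna at -0.01 (-0.36 to 0.34), Cdc6 at 0.10 (-0.39 to 0.58), Dut at 0.23 (-0.14 to 0.60) and Pole at 0.32 (-0.11 to 0.76). Mcm2, Mcm5, Pcna, Cdc6 and Dut had overlapping arrays.

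These few calls rested on single arrays: 0 members were higher without UNPD replicate 1, UNPD replicate 2 or RAPD replicate 1, 1 without any one UNSC or UNTD array, 5 without RAPD replicate 2 and 4 without either RATD array, and 0 were lower without any one untreated array or RAPD replicate 1 and 2 without RAPD replicate 2. Higher genes made up 60.4% of all called genes as deposited and 34.8% at a common 75th percentile.

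In the TD subset, limma called 0 of 42 members higher and 0 lower after ATRA (against 0.192% and 0.096% of all genes). At an unadjusted p under 0.05, for which no share of all genes was computed, 4 members were higher and 0 lower. The median was 0.20 beside -0.01 for all genes, and 31 of the 42 differences were positive. Tk1 differed by 0.86 ± 0.20, with a 95% interval from 0.42 to 1.31 and arrays that did not overlap, at an adjusted p of 0.116, the lowest of any member. Dut differed by 0.48 ± 0.17, Rrm2 by 0.43 ± 0.17, Mcm5 by 0.30 ± 0.17, Cdc6 by 0.27 ± 0.22, Mcm2 by 0.26 ± 0.18, Pcna by 0.13 ± 0.16 and Pole by -0.22 ± 0.20. The summed monocyte and macrophage markers were lower on both RATD arrays (17180 and 33970) than on the UNTD arrays, and their part in these differences was not tested.

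After ATRA the TD subset again had lower replication genes than the PD subset. In RATD against RAPD, 18 of 42 members were lower (42.9%, against 2.13% of all genes) and 0 were higher (against 2.65%), the median was -0.60 beside -0.06, and 39 of the 42 differences were negative. At an unadjusted p under 0.05, 35 were lower and 0 higher, again with no share of all genes computed. Tk1 was 3.25-fold lower (-1.70 ± 0.20; adjusted p = 0.00169), Dut 2.46-fold lower (-1.30 ± 0.17; adjusted p = 0.00279) and Lig1 2.22-fold lower (-1.15 ± 0.18; adjusted p = 0.00704).

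Pold2 (-1.26 ± 0.23), Pold1 (-1.17 ± 0.18) and Gins2 (-1.05 ± 0.22) fell, with adjusted p of 0.0162, 0.00806 and 0.0273. The licensing factors Cdc6 (-1.01), Mcm7 (-0.87), Mcm5 (-0.84), Gmnn (-0.69) and Mcm3 (-0.59) fell, as did Rrm2 (-0.96) and Pole (-0.85). The other called members were Fen1, Cdc45 and the clamp loader subunits Rfc2, Rfc3 and Rfc5. Pcna (-0.51 ± 0.16) and Mcm2 (-0.55 ± 0.18) were not called, at adjusted p of 0.0873 and 0.0932, and Pola1 (0.65 ± 0.39), Rfc1 (0.29 ± 0.27) and Mcm4 (0.01 ± 0.23) were positive and not called. All 15 further probe sets of the called members had the sign of the one used. This comparison has no array in common with UNTD minus UNPD, but both come from 1 fit with a shared estimate of spread. Of its 18 lower members, 17 were also among the 30 lower there, and Pole was the other. As 71.4% of the members were lower there and the overlap over all genes was not counted, this overlap is no independent replication.

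The number of lower members was 20 after quantile normalization, 26 at a common 75th percentile (with higher genes at 39.2% of all called genes, against 55.5% as deposited), 2 without RAPD replicate 2, 7 without either UNSC array, 9 without RATD replicate 2 and 10 without either UNTD array. It was 26 without RAPD replicate 1, where 2 members were also called higher.

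Whether ATRA acted differently in the 2 subsets was tested as the ATRA difference in TD minus that in PD. Limma called 0 of 42 members in either direction (against 0.0617% of all genes higher and 0.178% lower). At an unadjusted p under 0.05, for which no share of all genes was computed, 2 were higher and 0 lower. The lowest adjusted p was 0.273, for Pola2 (0.72 ± 0.28), and the largest difference was that of Pola1, at -0.94 ± 0.55. Among the genes called in RAPD against UNPD, Cad gave 0.81 ± 0.33, Rrm2 -0.49 ± 0.24 and Mcm4 -0.29 ± 0.32. The reference genes lay between -0.55 ± 0.28 for Pole and 0.32 ± 0.24 for Mcm5, with Dut at 0.25, Mcm2 at 0.22, Tk1 at 0.19, Cdc6 at 0.18 and Pcna at 0.15. The median standard error of this contrast was 0.277, and 2 members were called lower without RAPD replicate 2. Higher genes made up 25.7% of all called genes as deposited and 51.2% at a common 75th percentile.

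Other genes of the pathway are given with the share of all genes called in the same direction, and no list was tested against the members or against other genes. Of 38 other replication genes, 8 were higher (21.1%, against 10.6%) and 16 lower (42.1%, against 15.2%) in UNPD than in UNSC, with a median of -0.40 beside 0.20 for all genes. The ribonuclease H2 subunit Rnaseh2a rose by 0.86 ± 0.19, and the checkpoint adaptor Topbp1 (-2.26 ± 0.27), the clamp unloader Atad5 (-2.29 ± 0.28) and the topoisomerase Top1 (-2.21 ± 0.31) fell. In UNTD against UNSC 0 were higher (against 4.96%) and 5 lower (13.2%, against 3.2%), and the median was -0.55 beside -0.04. Rnaseh2a was at -0.99 ± 0.19, the fork protection factor Tipin at -0.82 ± 0.18 and the histone chaperone Asf1b at -0.76 ± 0.17. In UNTD against UNPD 8 were higher (21.1%, against 18%) and 12 lower (31.6%, against 17.2%). In RAPD against UNPD 6 were higher (15.8%, against 4.86%) and 1 lower (2.63%, against 3.19%). Atad5, Topbp1 and the origin-firing kinase Cdc7 rose there by 1.26 ± 0.28, 1.11 ± 0.27 and 1.04 ± 0.25. In RATD against RAPD 0 were higher (against 2.65%) and 7 lower (18.4%, against 2.13%).

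Of 27 other nucleotide synthesis genes, 3 were higher (11.1%) and 4 lower (14.8%) in UNPD than in UNSC, shares near those of all genes. The nucleoside diphosphate kinase Nme1 rose by 0.92 ± 0.16, and Prps2, which makes the ribose phosphate donor (-2.56 ± 0.51), Rrm2b, the alternative small reductase subunit (-1.97 ± 0.35), and Gmps, which makes GMP (-1.66 ± 0.28), fell. In UNTD against UNSC 1 was higher (3.7%, against 4.96%) and 2 were lower (7.41%, against 3.2%). The higher one was Samhd1, a hydrolase that degrades deoxynucleotides, by 1.73 ± 0.23 (adjusted p = 0.000759), and the thymidylate kinase Dtymk (-0.71 ± 0.16) and the purine enzyme Adsl (-0.71 ± 0.19) fell. In UNTD against UNPD 6 were higher (22.2%, against 18%) and 11 lower (40.7%, against 17.2%), and in RAPD against UNPD 1 was higher (3.7%, against 4.86%) and 2 were lower (7.41%, against 3.19%). In RATD against RAPD 1 was higher (3.7%, against 2.65%) and 3 were lower (11.1%, against 2.13%); Samhd1 rose by 1.06 ± 0.23 and Dtymk differed by -0.69 ± 0.16. The monocyte and macrophage markers moved in the same direction as Samhd1, and their part in its difference was not tested.

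Of 17 genes of the E2F and RB family, 3 were higher (17.6%, against 10.6%) and 4 lower (23.5%, against 15.2%) in UNPD than in UNSC. The activator E2f1 rose by 0.60 ± 0.19, E2f2 by 1.07 ± 0.30 and cyclin E1 (Ccne1) by 0.87 ± 0.21, while the pocket proteins Rb1 (-1.73 ± 0.31), Rbl1 (-1.66 ± 0.27) and Rbl2 (-1.15 ± 0.19), which hold E2F in check, fell. In UNTD against UNSC E2f2 was the only one called (5.88% higher, against 4.96%), by 2.49 ± 0.30 (adjusted p = 0.000384). In UNTD against UNPD 5 were higher (29.4%, against 18%) and 3 lower (17.6%, against 17.2%). In RAPD against UNPD E2f2, Rb1 and the repressor E2f7 rose by 1.95 ± 0.30, 1.15 ± 0.31 and 0.77 ± 0.19 (17.6%, against 4.86%), and 0 fell (against 3.19%). In RATD against RAPD 2 fell (11.8%, against 2.13%), Ccne1 (-1.01 ± 0.21) and E2f7 (-0.79 ± 0.19), and 0 rose.

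Mitosis genes were taken as a second set of cell-cycle genes. Of 23 tested, 7 were higher (30.4%, against 10.6%) and 9 lower (39.1%, against 15.2%) in UNPD than in UNSC, with a median of -0.08 beside 0.20 for all genes. The ubiquitin-conjugating enzyme Ube2c and the mitotic kinase Cdk1 were at 1.12 and 0.91, and the kinetochore motor and scaffold Cenpe and Cenpf at -2.10 and -2.23. In UNTD against UNSC 0 were higher (against 4.96%) and 7 lower (30.4%, against 3.2%), and the median was -0.68, beside -0.59 for the replication members and -0.04 for all genes. In UNTD against UNPD 6 were higher (26.1%, against 18%) and 11 lower (47.8%, against 17.2%), in RAPD against UNPD 0 and 2 (8.7%, against 3.19%), and in RATD against RAPD 2 (8.7%, against 2.65%) and 3 (13%, against 2.13%). None of these 4 lists had a gene called in RATD against UNTD or in the comparison of the ATRA differences.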

How the data were processed

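Total RNA was extracted with Trizol and labelled with biotin from 6 µg per sample, per the labels' protocols, and hybridised to 10 single-colour Affymetrix arrays, 2 in each of 5 groups taken from the sample titles. The deposited values are log2 signals that the authors made with MAS5, per the submitters' processing notes; no source used here gives a version. Their log2 scale was read from the range of the values. Returned to a linear scale, the trimmed mean per array was between 496.3 and 497. No detection calls were used, and precision is limited by the number of arrays.

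Of 45037 probe sets, 34945 had 1 symbol in the platform annotation, 932 several and 9160 none. Probe sets were kept where 2 or more arrays gave a signal over the 40th percentile (32686, 72.6%), and the brightest 1-symbol probe set stood for a gene, which gave 14581 genes. All 10 arrays were fitted together with limma 3.58.1 in R 4.3.3 (lmFit and eBayes with an intensity trend; 5 residual degrees of freedom) for 7 contrasts and an F test, with Benjamini-Hochberg adjustment over all genes at 0.05. The procedure was tested on simulated data. Named values are those of up to 6 called members per contrast and direction with the largest differences and arrays that did not overlap, of 8 reference genes in every contrast, and of up to 3 called genes of smallest p per other list, contrast and direction. The members and lists were chosen with earlier results of these data known. The deviations of same-numbered replicates correlated at -0.501 (UNPD with RAPD) to 0.0995, so the numbers were not taken to pair arrays. The value of -0.501 means that UNPD replicate 1 deviated like RAPD replicate 2. With 2 arrays a group it rests on a single deviation in each group, so whether these arrays varied independently cannot be told. The cause of this value was not tested. Alternatives were other scalings, filters, variance models and probe sets, the replicate block, and leaving out each array.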

Additional observations from a re-analysis of the deposited data

How the results depend on the processing

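Direction was more stable than the number of calls. With 2 arrays a group, a call rests on single arrays. The UNPD arrays differ from most others in their 75th percentile, so scaling and subset cannot be told apart there. RAPD replicate 2 (8.41) is near them and apart from RAPD replicate 1 (8.60), so the limit also bears on comparisons with RAPD, RATD minus RAPD among them. The cause of a change was not tested unless stated. Counts of members called are given as higher and lower where both moved. The number of all 14581 genes called in the same direction follows in brackets for the scalings. After quantile normalization, 6 were higher in UNPD minus UNSC (2215), 22 lower in UNTD minus UNSC (639) and 1 higher in RAPD minus UNPD (486). At a common 75th percentile 25 were higher in UNPD minus UNSC (4412), 1 in UNTD minus UNPD (1786) and 1 in RAPD minus UNPD (641). Without the trend the counts were 2 higher (UNPD minus UNSC), 1 lower (UNTD minus UNSC), 1 higher (UNTD minus UNPD), 0 and 0 (RAPD minus UNPD) and 0 lower (RATD minus RAPD). Array weights gave 18 higher, 34 lower, 1 higher and 6 lower in UNPD minus UNSC, UNTD minus UNSC, RAPD minus UNPD and RATD minus RAPD, and fitting only the arrays compared gave 18 higher, 38 lower and 1 lower in the first, second and last of these. With the 75th percentile as covariate the counts were 0 and 0 in UNPD minus UNSC, UNTD minus UNPD and RAPD minus UNPD, 0 lower in RATD minus RAPD and 13 in the test over 5 groups. With no filter on dim probe sets 1 member was higher in RAPD minus UNPD. With the replicate block, 1 was higher in RAPD minus UNPD and 11 were lower in RATD minus RAPD; the block moved no other count of members by more than 1.5 times.

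Leaving out each array in turn gave ranges of 0 to 14 higher and 1 to 5 lower in UNPD minus UNSC, 0 to 22 lower in UNTD minus UNSC, 0 to 2 higher and 22 to 30 lower in UNTD minus UNPD, 0 to 5 higher and 0 to 2 lower in RAPD minus UNPD, 0 to 2 higher and 2 to 26 lower in RATD minus RAPD, 0 to 2 lower in the difference of the ATRA differences and 29 to 39 in the test over 5 groups; each leaves 1 group with a lone array, assumed to vary like the others.

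Signs of single genes turned in these cases. With the 75th percentile as covariate, UNPD minus UNSC was -0.17 for Tk1, -0.20 for Gins2, -0.12 for Dut, 1.17 for Pola1, 0.26 for Rfc1, -0.10 for Cdc6, -0.15 for Pcna, 0.42 for Pole and 0.014 for Rrm2; UNTD minus UNPD was -1.91 for Pola1 and -0.97 for Rfc1; RAPD minus UNPD was 0.22 for Mcm5, 0.26 for Pcna and -0.014 for Pole; and the difference of the ATRA differences was -0.026 for Mcm5, -0.070 for Cdc6, -0.26 for Pcna, -0.53 for Tk1 and -0.32 for Dut. Further probe sets turned the sign of genes whose alternatives were computed singly, -0.25 for Mcm5 (UNPD minus UNSC) and 0.33 and 0.57 for Pola2 (UNTD minus UNSC), and of 8 other pairs of a called member and a further probe set, whose values stand beside the comparisons above. The rest were reference genes that were not called. In UNPD minus UNSC they were -0.048 for Pcna after quantile normalization and 0.12 for Pole and 0.28 for Rrm2 at a common 75th percentile. In RAPD minus UNPD they were 0.081 for Mcm5 and 0.050 for Pcna (quantile), -0.15 for Mcm2 and -0.10 for Cdc6 (common 75th percentile), -0.086 for Mcm2 and -0.059 for Dut (mean over probe sets), and -0.21 for Mcm2 and -0.35 for Dut (further probe sets). Leaving out single arrays there gave -0.056 to 0.14 for Mcm2, -0.13 to 0.10 for Mcm5, -0.049 to 0.24 for Cdc6 and -0.16 to 0.14 for Pcna, and in RATD minus UNTD -0.0054 to 0.55 for Cdc6. For the difference of the ATRA differences Pcna was -0.016 (quantile), and without single arrays the ranges were -0.0075 to 0.45 for Mcm2, -0.10 to 0.46 for Cdc6, -0.0034 to 0.29 for Pcna and -0.041 to 0.42 for Tk1.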
